A study of Homo sapiens with 6 samples.

Results

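Interferon-stimulated genes are the genes that cells transcribe after interferon binds its receptors. A list of 43 of them was followed in SW872, an established human liposarcoma cell line, and all 43 were found by symbol among the 57773 genes of the deposited count matrix. RNA-seq was performed on 3 replicates treated with 18 μM Apatinib, a small molecule inhibitor of receptor tyrosine kinases, for 24 h and on 3 untreated control replicates of the same line. No sample had received interferon according to the labels, and both groups were grown in RPMI-1640 with serum. The comparison therefore shows the level of these genes in unstimulated liposarcoma cells, and how that level differed with Apatinib.

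Type I interferons bind a receptor made of IFNAR1 and IFNAR2, which activates the kinases JAK1 and TYK2. These kinases phosphorylate STAT proteins, among them STAT2, which joins IRF9 in the complex ISGF3 that binds a DNA element called the interferon-stimulated response element, or ISRE. The genes with this element encode sensors of viral RNA, enzymes that lead to its degradation, proteins that block viral entry, and the transcription factors that keep the response going. Type II interferon acts mainly on another element, the GAS.

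The promoters show what these genes share at the sequence level. RefSeq windows on GRCh38.p14, from 250 bases before to 50 bases after a transcription start, were matched for 34 of the 43 genes. Those without a match were IRF7, USP18, IFIT2, IFITM2, MX2, GBP2, OAS2, OASL and TRIM22. The ISRE letters, taken as GAAA, any 2 bases and GAAA on either strand (TTTC, any 2 bases and TTTC on the other), were found in 24 of these 34 genes (70.6%) and in 4.38% of all 27305 genes with a window. The letters of the GAS, taken as TTC, any 3 bases and GAA, were found in 11 of the 34 genes (32.4%) and in 9.38% of all genes. Matches of the 2 motifs could overlap, and a match describes letters and not binding. The bases directly upstream of the start are shown for 5 genes, chosen after their values were seen to set the ISRE letters of a gene that fell (SAMD9) beside those of genes discussed with it. Capitals mark the ISRE letters, and overlapping matches run together.
SAMD9, chr7:93117980-93118129, minus strand: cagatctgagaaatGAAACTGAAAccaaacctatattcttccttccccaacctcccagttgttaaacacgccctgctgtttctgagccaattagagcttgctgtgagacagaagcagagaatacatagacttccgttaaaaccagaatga
OAS3, chr12:112938324-112938473, plus strand: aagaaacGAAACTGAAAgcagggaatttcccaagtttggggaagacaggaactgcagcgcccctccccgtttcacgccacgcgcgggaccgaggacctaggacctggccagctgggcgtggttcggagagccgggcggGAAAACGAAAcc
IFIT1, chr10:89392473-89392622, plus strand: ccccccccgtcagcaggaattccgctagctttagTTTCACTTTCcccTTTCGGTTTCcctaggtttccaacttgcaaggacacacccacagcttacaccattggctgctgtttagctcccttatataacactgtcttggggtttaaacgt
ISG15, chr1:1013347-1013496, plus strand: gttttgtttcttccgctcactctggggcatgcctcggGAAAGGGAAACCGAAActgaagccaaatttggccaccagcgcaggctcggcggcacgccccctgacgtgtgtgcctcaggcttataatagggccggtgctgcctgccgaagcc
IFI6, chr1:27672193-27672352, minus strand: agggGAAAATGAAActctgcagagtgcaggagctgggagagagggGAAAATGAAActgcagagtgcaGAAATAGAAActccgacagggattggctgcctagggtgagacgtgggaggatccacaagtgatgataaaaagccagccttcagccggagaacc
The window held 1 match in SAMD9, 2 each in OAS3, IFIT1 and ISG15, and 3 in IFI6.

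Total counts were between 17043314 and 22067558 per sample. Expression of a gene between samples is given as CPM, counts scaled to a common library size by edgeR's TMM method, and levels between genes as FPKM, which accounts for transcript length. Errors of means are SD over the 3 replicates of a group. Control 1 and control 2 were closer to each other than other replicates were, by the chi-square of their counts (mean over genes 2.27, against 18.2 to 44.5 for the other pairs within a group). The study describes biological replicates, but the sources used here do not say how the cultures of control 1 and control 2 were made. If the 2 were not independent, the SD of the control and the FDR values would be too small. With both summed as 1 sample, 292 genes in all and only OASL of the list were DEGs. The labels name no batch. All 6 mesenchymal markers (such as VIM and FN1) were above 1 CPM, with summed levels of 6456 to 7466 CPM with Apatinib and 5485 to 5882 CPM in the control, and COL3A1 was a higher DEG (log2 fold change 1.18, FDR = 0.00955). Of 7 adipocyte markers, 3 were above 1 CPM, while ADIPOQ and FABP4 had 0 counts in every sample. CEBPA also had 0 counts but 0.0579 to 0.319 FPKM, and its exons overlap antisense genes, so its level is uncertain. LPL was a higher DEG (log2 fold change 0.84, FDR = 0.0237). Of 9 immune cell markers, PTPRC, LYZ and CLEC4C had 0 counts in every sample, and 2, CD14 (2.29 to 5.17 CPM) and IL3RA (1.10 to 2.54 CPM), were above 1 CPM on average. The summed level of the 9 immune markers was 5.78 to 7.73 CPM with Apatinib and 6.29 to 8.08 CPM in the control. The 3 endothelial markers summed to 2.71 to 4.41 CPM with Apatinib and 2.86 to 3.99 CPM in the control, and VWF (higher) and CDH5 (lower) were DEGs. The 4 epithelial markers summed to 123 to 155 CPM with Apatinib and 92.8 to 108 CPM in the control, where KRT8 was a higher DEG and EPCAM and CDH1 were below 1 CPM. The part of these markers in the results was not tested.

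The interferon-stimulated genes were expressed at very different levels without any interferon treatment. By mean FPKM over the 6 samples, 16 of the 43 genes were above 10 and 4 were below 1. IFITM3, a membrane protein that blocks the entry of viruses into cells, led with 232 ± 37.9 FPKM in the control and 301 ± 30.5 FPKM with Apatinib (SD, n = 3). LGALS3BP, a secreted glycoprotein that binds galectins, came next with 217 ± 33.1 FPKM in the control and 283 ± 21.9 FPKM with Apatinib. These 2 genes made up 45.4% to 55.1% of the summed FPKM of all 43 genes in a sample. IFITM3 was above LGALS3BP in all 6 samples, by 6.92 to 26.1 FPKM. BST2, which tethers virus particles to the cell surface, had a mean of 97.4 FPKM. It was followed by MX2, a dynamin-like GTPase active against retroviruses, with 64.6 FPKM and by IFITM1 with 54.2 FPKM. IFI6, IFI35 and STAT2 completed the 8 most abundant genes, with means of 27.7, 23.4 and 19.1 FPKM.

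**Figure D1:**
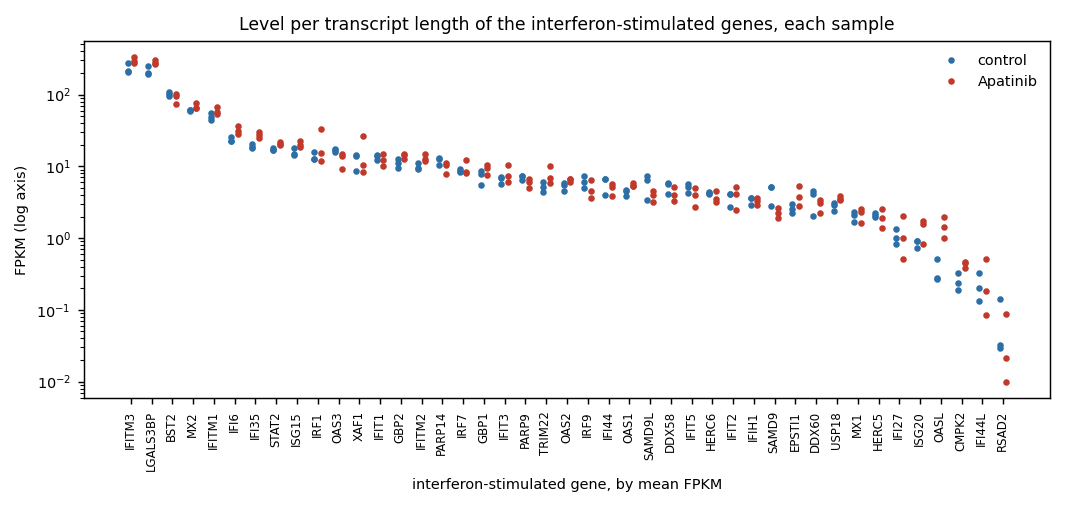
FPKM of each interferon-stimulated gene on a log axis, ordered by mean FPKM, with 3 points for the control and 3 for Apatinib samples. IFITM3 (mean 267 FPKM) and LGALS3BP (mean 250 FPKM) stand at the top and RSAD2 (mean 0.0538 FPKM) at the bottom.

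The low end held genes that are strongly induced when interferon is given in other systems. RSAD2, which encodes the antiviral enzyme viperin, had 1 to 9 counts per sample and was not tested because it did not pass the filter on low counts. IFI44L had a mean of 0.241 FPKM, CMPK2, a mitochondrial nucleotide kinase, 0.341 FPKM and OASL 0.909 FPKM. MX1, the paralog of MX2, had a mean of 2.11 FPKM, well below the 64.6 FPKM of MX2. Exons of 15 of the 43 genes overlap another annotated gene, and the counting rule for shared reads and the use of strand are not given in the sources used here. The FPKM per count was multiplied by the length in kilobases of the longest annotated transcript. It should be alike for all genes if both count the same reads and the FPKM used that length. The length behind the FPKM may differ, so a high value does not by itself show shared reads. Over the 6 samples it was 0.166 for IFITM1 and 0.0374 for IFITM3, with a median of 0.0432 for the 43 genes. IFITM1 and IFITM2 share 351 exonic bases on the same strand, so the counts of both are uncertain. IRF9, which shares 444 exonic bases with AL136295.5 on the same strand, had 0.322, and its 189 counts over all samples are uncertain.

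DEGs were genes with FDR < 0.05 whose log2 fold change exceeded 0.5 in either direction. When Apatinib samples were compared with controls, 3 of the 42 interferon-stimulated genes tested (7.14%) were DEGs. Among all 16290 genes tested, 1866 (11.5%) were DEGs, so the share in the list was below the background in this fit. The order held in some other fits. With RLE size factors the shares were 4.76% of the list and 11.4% of all genes. With at least 10 counts per sample they were 4.76% and 12%, and with a replicate block 4.76% and 13.6%. The order turned in others. With DESeq2 the shares were 11.6% and 6.30%, and with no filter on low counts 14% and 7.85%. In these 2 fits the share of all genes is over 32596 genes that include those of low counts, unlike the share over 16290 genes. With a correction for the GC content of transcripts, added after the data were seen, the shares were 9.52% and 8.70%, and with controls 1 and 2 summed 2.38% and 1.75%. OASL and IFI35 rose (2 genes, 4.76%, against 5.97% of all genes), and SAMD9 fell (1 gene, 2.38%, against 5.48% of all genes). Without adjustment, 14 of the 42 genes (33.3%) had a p under 0.05 in edgeR's quasi-likelihood test, against 30.6% of all genes. The 3 Apatinib samples lay on one side of the 3 control samples in 15 genes (35.7%), against 33.2% of all genes. In 12 of these 15 genes the Apatinib samples were above the control (28.6% of the genes tested, against 17.5% of all genes). In SAMD9, OAS3 and PARP9 they were below it (7.14%, against 15.7% of all genes). The log2 fold change was above 0 in 26 of the 42 genes (61.9%) and in 50.3% of all genes, with medians of 0.17 and 0.0028.

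**Figure D2:**
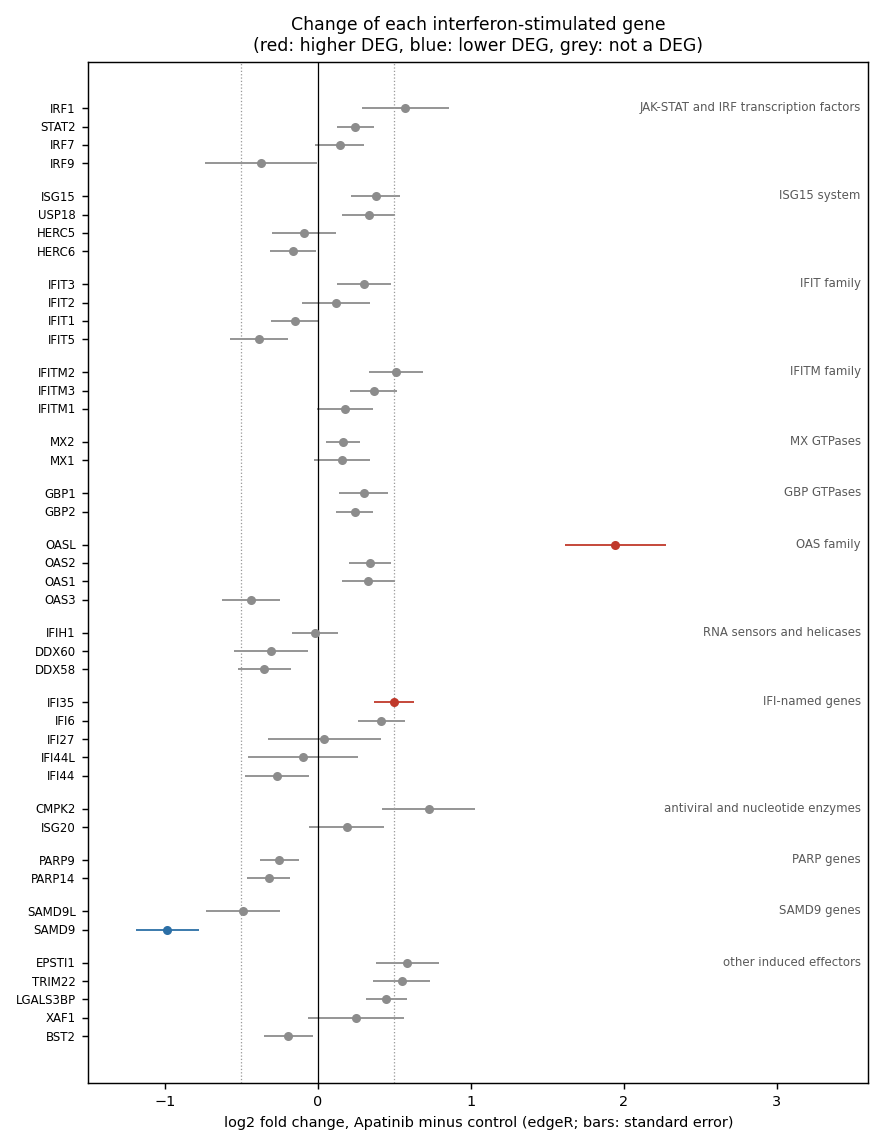
Log2 fold change (Apatinib minus control, edgeR) of the 42 interferon-stimulated genes tested, grouped by role, with bars for the standard error. OASL (1.94) and IFI35 (0.50) are marked as higher DEGs and SAMD9 (-0.98) as a lower DEG, and the other 39 genes are not DEGs.

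OASL, a member of the oligoadenylate synthetase family that lacks the enzyme activity and enhances RNA sensing by RIG-I, showed the largest change. OASL (ENSG00000135114) had 77, 96 and 50 counts in Apatinib 1 to 3 and 14, 16 and 34 counts in control 1 to 3. Its expression was 4.48, 5.42 and 2.86 CPM with Apatinib and 0.808, 0.880 and 1.56 CPM in the control, so that the groups did not overlap. The nearest samples were Apatinib 3 and control 3. The means of OASL were 4.25 ± 1.29 CPM and 1.08 ± 0.414 CPM. The rise fitted by edgeR was 3.85-fold (log2 fold change 1.94, SE 0.33, FDR = 0.00748). OASL was a DEG in each of the 6 fits that left out a replicate, with log2 fold changes of 1.73 to 2.32. Per transcript length OASL was a low gene in both groups, with 1.47 ± 0.484 FPKM with Apatinib and 0.351 ± 0.136 FPKM in the control.

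SAMD9 encodes a cytoplasmic protein that restricts poxviruses and limits cell growth, and it stands next to its paralog SAMD9L in the genome. SAMD9 (ENSG00000205413) had 19.4, 20.4 and 24.6 CPM in Apatinib 1 to 3 and 47.5, 51.4 and 28.6 CPM in control 1 to 3. The groups did not overlap, but control 3 lay nearer to the Apatinib samples than to the other controls. SAMD9 fell by 0.98 on the log2 scale (SE 0.205, FDR = 0.0144 by edgeR), from 42.5 ± 12.2 CPM to 21.5 ± 2.74 CPM. With the GC correction the log2 fold change was -0.56 (FDR = 0.0160). SAMD9 was a DEG in 9 of the 16 alternative fits and in none of the 3 limma fits on FPKM (FDR 0.0671 to 0.217). It was a DEG in 3 of the 6 fits without a replicate. The call was lost in the others, with an FDR of 0.0732 without control 1, 0.0781 without control 2 and 0.05, at the limit, without Apatinib 1. The log2 fold changes in these fits were -0.90, -0.83 and -0.91. SAMD9L had 28.7, 40.1 and 37.4 CPM with Apatinib and 57.0, 62.6 and 29.6 CPM in the control. Its groups overlapped because control 3 was as low as Apatinib 1, and it was no DEG (log2 fold change -0.49, SE 0.24, FDR = 0.194). Without control 3, SAMD9L had a log2 fold change of -0.75 and an FDR of 0.00750.

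IFI35, a leucine zipper protein that regulates innate immune signalling, was the other gene that rose. IFI35 (ENSG00000068079) had 49.2, 50.3 and 42.2 CPM with Apatinib and 31.2, 32.1 and 36.8 CPM in the control, without overlap. Its means were 47.2 ± 4.40 CPM and 33.4 ± 3.03 CPM, with a log2 fold change of 0.50025 (SE 0.131, FDR = 0.0323), which is at the limit of 0.5 for a DEG. IFI35 was a DEG in 2 of the 6 fits without a replicate, those without Apatinib 3 and without control 3. Without Apatinib 1, Apatinib 2, control 1 or control 2 its log2 fold change was 0.45 to 0.47 and its FDR between 0.0546 and 0.166. LGALS3BP had an FDR of 0.0466 but a log2 fold change of 0.45, under the limit. It was a DEG without Apatinib 2 (log2 fold change 0.50, FDR = 0.0339) and without control 3 (log2 fold change 0.53, FDR = 0.0377). Its levels were 1042, 845 and 849 CPM with Apatinib and 637, 632 and 736 CPM in the control, without overlap.

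**Figure D3:**
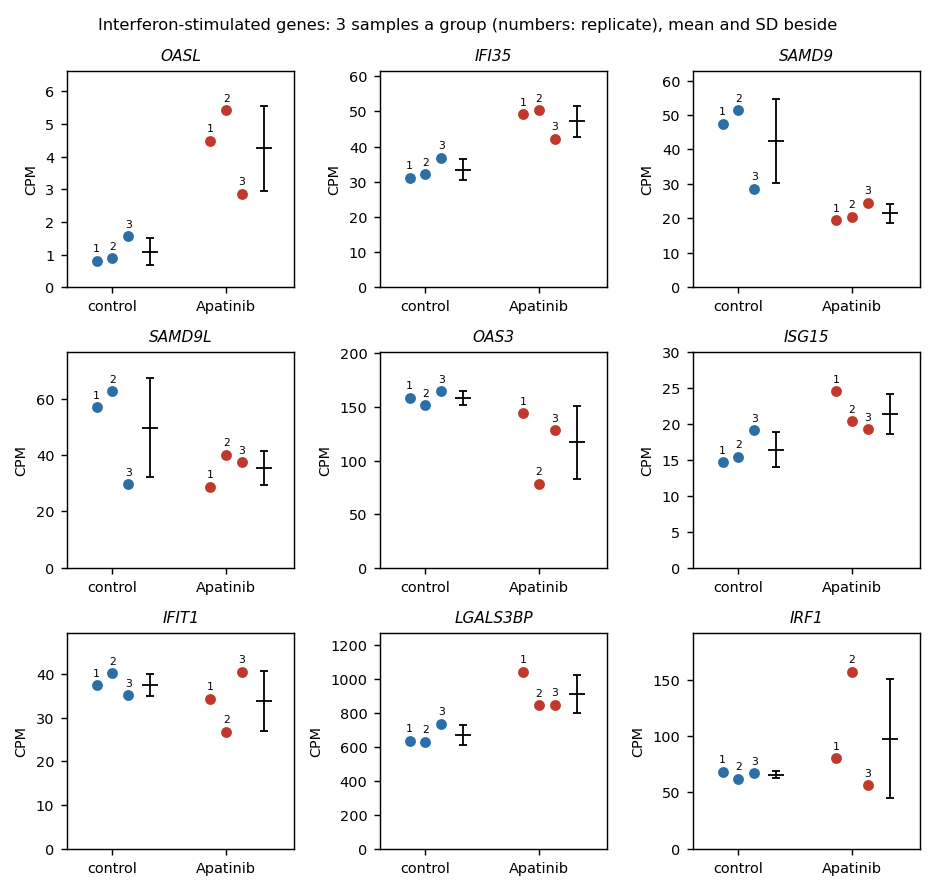
CPM of selected interferon-stimulated genes in the 3 control and the 3 Apatinib samples (numbers give the replicate), with the mean and SD beside the points. OASL is higher and SAMD9 lower in every Apatinib sample, and control 3 of SAMD9 (28.6 CPM) lies near the Apatinib samples.

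In the OAS family, 3 of 4 log2 fold changes were above 0 and 1 below, where 50.3% of all genes were above 0. OASL was the only DEG (25%, against 11.5% of all genes). The same shares of all genes apply to the families that follow. OAS1, OAS2 and OAS3 make oligoadenylates that activate the RNA-degrading enzyme RNase L. OAS2 had 39.2, 32.7 and 36.6 CPM with Apatinib and 30.4, 24.7 and 30.3 CPM in the control (log2 fold change 0.34, FDR = 0.118). OAS3 went the other way, with 144, 78.3 and 128 CPM with Apatinib and 158, 152 and 165 CPM in the control (log2 fold change -0.44, FDR = 0.142). Neither OAS2 nor OAS3 overlapped between the groups, and neither passed the FDR limit. Apatinib 2 had the lowest OAS3 level by far, and without this sample the log2 fold change of OAS3 was -0.21. OAS1 had a log2 fold change of 0.33 (FDR = 0.221).

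The IFITM family of entry inhibitors had log2 fold changes above 0 in 3 of 3 genes and no DEG. IFITM3 had 407, 333 and 323 CPM with Apatinib and 245, 245 and 335 CPM in the control (log2 fold change 0.36, FDR = 0.134). Control 3 was inside the Apatinib range, and without it IFITM3 was a DEG, with a log2 fold change of 0.53 and an FDR of 0.0317. IFITM2 had 11.9, 8.75 and 9.16 CPM against 6.64, 6.93 and 7.33 CPM in the control, without overlap (log2 fold change 0.51, FDR = 0.0786). IFITM1 had a log2 fold change of 0.18 (FDR = 0.551), and it was -0.0051 without Apatinib 1.

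In the ISG15 system, ISG15 is a ubiquitin-like protein, HERC5 and HERC6 are ligases and USP18 removes ISG15 from its targets and restrains the receptor. No gene of the 4 was a DEG. ISG15 had 24.6, 20.4 and 19.3 CPM with Apatinib and 14.7, 15.5 and 19.2 CPM in the control (log2 fold change 0.38, FDR = 0.133). Its groups were separated only by the small gap between Apatinib 3 and control 3. USP18 had a log2 fold change of 0.33 (FDR = 0.216), HERC5 of -0.09 (FDR = 0.810) and HERC6 of -0.16 (FDR = 0.508).

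The IFIT genes, whose proteins bind foreign RNA and block its translation, were split, with 2 of 4 log2 fold changes above 0 and none a DEG. They ranged from -0.39 for IFIT5 to 0.30 for IFIT3. IFIT1 had 34.4, 26.8 and 40.5 CPM with Apatinib and 37.5, 40.2 and 35.1 CPM in the control (log2 fold change -0.15, FDR = 0.562), with full overlap. The RNA sensors IFIH1 (MDA5) and DDX58 (RIG-I) and the helicase DDX60 had log2 fold changes below 0 in 3 of 3 genes, from -0.35 to -0.02, with FDR values of 0.199 to 0.949. With the GC correction IFIH1 and DDX60 were above 0, at 0.09 and 0.02. DDX60 had 37.1, 35.4 and 17.8 CPM in control 1 to 3 and 20.2, 24.9 and 27.6 CPM with Apatinib. Control 3 was thus the lowest of all 6 samples for DDX60, which was a DEG in the fit without it (log2 fold change -0.58, FDR = 0.0295).

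The MX and GBP GTPases all had log2 fold changes between 0.16 and 0.30, and none was a DEG. MX2 had 215, 227 and 200 CPM with Apatinib and 186, 191 and 196 CPM in the control, without overlap but with a log2 fold change of only 0.16 (FDR = 0.35). PARP9 and PARP14, ADP-ribosyltransferases that act on interferon signalling, had log2 fold changes of -0.25 (FDR = 0.204) and -0.32 (FDR = 0.15). PARP14 had 90.04, 109 and 120 CPM with Apatinib and 140, 144 and 116 CPM in the control, where control 3 fell inside the Apatinib range.

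Among the genes named for interferon induction, IFI6, which protects cells from flavivirus replication, had 46.1, 32.8 and 36.6 CPM with Apatinib. Its control levels were 26.4, 27.5 and 32.6 CPM (log2 fold change 0.42, FDR = 0.0974). Apatinib 2 and control 3 almost met. IFI44 had a log2 fold change of -0.26 (FDR = 0.425), IFI44L of -0.09 (FDR = 0.887) and IFI27 of 0.04 (FDR = 0.950). CMPK2 had 1.69, 1.69 and 1.83 CPM with Apatinib and 1.33, 0.770 and 1.05 CPM in the control (log2 fold change 0.73, SE 0.304, FDR = 0.133). At these low counts the standard error was large, and the difference did not pass the test.

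EPSTI1 and TRIM22, a ubiquitin ligase with antiviral activity, had log2 fold changes above the limit without passing the FDR. TRIM22 had 24.4, 37.4 and 25.7 CPM with Apatinib and 18.99, 23.5 and 17.3 CPM in the control (log2 fold change 0.55, FDR = 0.0734). EPSTI1 had 13.4, 22.6 and 16.5 CPM with Apatinib and 10.9, 13.7 and 10.4 CPM in the control (log2 fold change 0.59, FDR = 0.0777). Both were DEGs with DESeq2, with FDR values of 0.0388 for TRIM22 and 0.0462 for EPSTI1. Without Apatinib 2, the highest sample for both, the log2 fold changes were 0.34 for TRIM22 and 0.36 for EPSTI1, under the limit. BST2 had 156, 101 and 138 CPM with Apatinib and 136, 150 and 164 CPM in the control (log2 fold change -0.19, FDR = 0.448).

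The transcription factors of the response showed no DEG in 4 genes. STAT2 had 91.8, 78.3 and 90.7 CPM with Apatinib and 69.6, 71.6 and 78.8 CPM in the control (log2 fold change 0.25, FDR = 0.197). IRF1, which activates many of the same promoters and is itself induced by type II interferon, had 80.4, 157 and 56.3 CPM with Apatinib and 68.3, 62.3 and 66.8 CPM in the control. The high value was that of Apatinib 2 alone, and the log2 fold change of 0.57 had an FDR of 0.196. Without Apatinib 2 it was 0.06, and without Apatinib 3 it was 0.85 and IRF1 was a DEG (FDR = 0.0436). IRF1 was also a DEG with no filter on low counts (log2 fold change 0.59, FDR = 0.00238). IRF7, the factor that amplifies interferon production, had a log2 fold change of 0.14 (FDR = 0.582), and IRF9 of -0.37 (FDR = 0.532).

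Some samples stood apart in several genes of the list. Apatinib 2 was the highest of the 6 samples in 14 genes (33.3%, against 22.5% of all genes) and control 3 in 2 (4.76%, against 12.1%). XAF1, a proapoptotic protein, had 105 CPM in Apatinib 2 against 37.3 and 46.6 CPM in the other Apatinib samples and 39.8 to 60.3 CPM in the control. Control 3 was the control nearest to the Apatinib mean in 23 of the 42 genes (54.8%), which was close to the 52.2% of all genes tested. The list had a median log2 fold change of 0.0651 without Apatinib 2 and 0.238 without Apatinib 3. Without control 3, 7 of the 42 genes were DEGs (16.7%), 4 higher and 3 lower, and 15.5% of all genes were. Without control 1, control 2 or Apatinib 1 the only DEG of the list was OASL (2.38%), where 1.65%, 1.80% and 4.73% of all genes were DEGs. Without Apatinib 2 the shares were 7.14% and 8.91%, and without Apatinib 3 9.52% and 12.1%. A single gene is 2.38% of the list. The part of Apatinib 2, of control 3 and of the close match of control 1 with control 2 in these values was not tested further.

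**Figure D4:**
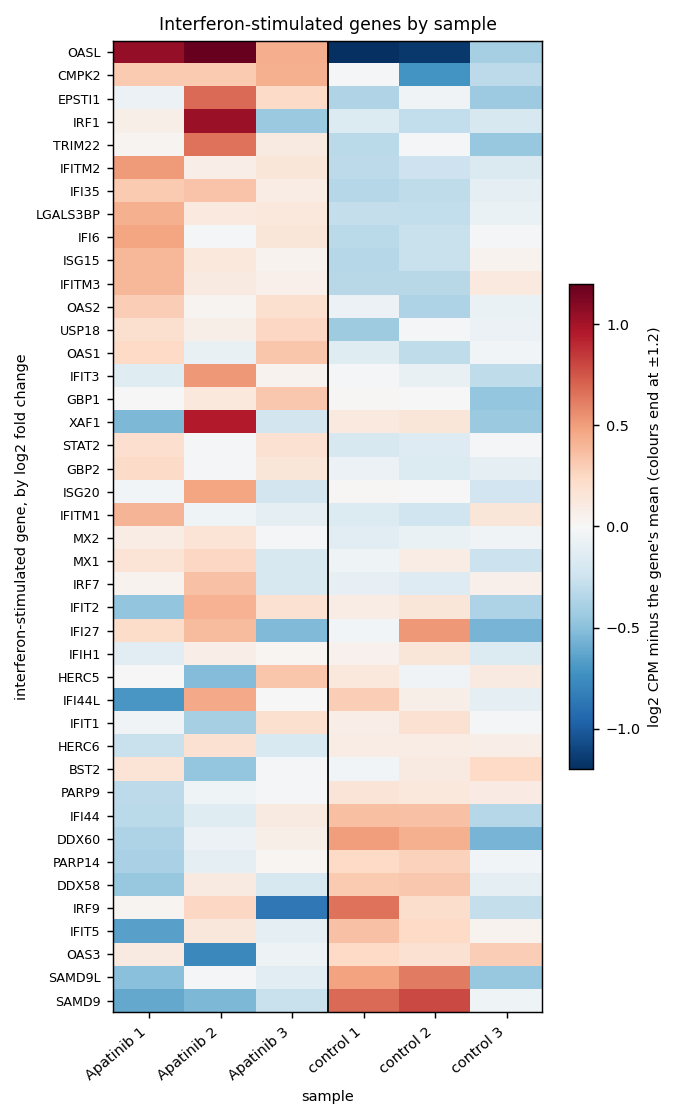
Log2 CPM minus the mean of the gene for the 42 interferon-stimulated genes tested (rows, by log2 fold change) in the 6 samples (columns). IRF1 and XAF1 stand out in Apatinib 2, and control 3 is closer to Apatinib than the other controls in 23 genes.

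The fold changes moved with the base composition and the length of the transcripts. Across the 42 genes, the log2 fold change had a Pearson r of 0.402 and a Spearman rho of 0.447 with the GC content of the transcript. Across 15819 of the genes tested r was 0.388 and rho 0.440, and in both cases genes share libraries and are not independent replicates. With the log2 transcript length, r was -0.335 and rho -0.467 across the 42 genes, against -0.0681 and -0.109 across all genes. The part of transcript length in the fold changes was not tested. Among the 21 genes at or above the median GC content of the list, 47.6%, the log2 fold change was above 0 in 18 and below 0 in 3. Among the 21 genes below it, 8 were above 0 and 13 below. SAMD9 (36.0% GC) and SAMD9L (38.5%) were among the genes of lowest GC content, and IFI35 (58.8%) and LGALS3BP (60.5%) among those of highest. With the correction for GC content, SAMD9 remained a DEG. SAMD9L moved to -0.14 (FDR = 0.609) and IFI35 to 0.33 (FDR = 0.0490), under the fold change limit. OASL was barely moved at 1.85 (FDR = 0.00746), and TRIM22 (0.72, FDR = 0.0175) and EPSTI1 (0.73, FDR = 0.0223) became DEGs. The part of GC content in each fold change was not tested beyond this correction.

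Genes with and without the ISRE letters had fold changes in both directions. Among the 23 tested genes with the letters in a window, 11 had log2 fold changes above 0 and 12 below, with a median of -0.018 and 1 DEG, SAMD9. Among the 10 tested genes with a window but without the letters, 6 were above 0 and 4 below, with a median of 0.25 and 1 DEG, IFI35. Of the genes whose promoters are printed above, SAMD9, OAS3 and IFIT1 had log2 fold changes below 0, and ISG15 and IFI6 above 0. The 9 genes without a window, OASL among them, all had log2 fold changes above 0 (median 0.33), so this split covers genes with fewer fold changes above 0 (17 of 33) than the whole list (26 of 42). With so few genes these values are a description only.

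The rest of the pathway was examined in 109 further genes. Of these, 79 were tested and 7 were DEGs, 4 higher and 3 lower, where 11.5% of all genes tested were DEGs. The genes of the interferons themselves were nearly silent. Of 21 interferon genes, 17 had 0 counts in all 6 samples, which allows up to 3 counts per sample, or 0.136 to 0.176 CPM without the TMM factor. Among these, IFNA1 and IFNA13 had 0.0179 and 0.0223 FPKM in control 1, so their levels are uncertain. IFNB1, the interferon most cells make first on sensing nucleic acids, had 1 count in Apatinib 2 and 0 in the other samples. IFNE, an epithelial type I interferon, had 0, 5 and 7 counts in Apatinib 1 to 3 and 11, 3 and 6 counts in control 1 to 3. All 21 genes together had 0 to 11 counts per sample, and no interferon gene was tested. Apart from IFNE, which was seen in 5 of 6 samples, no interferon gene had more than 2 counts in a sample.

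Of 6 receptor genes, 5 were tested and none was a DEG. IFNAR1 had 80.6, 89.5 and 94.2 CPM with Apatinib and 123, 117 and 107 CPM in the control, without overlap (log2 fold change -0.39, SE 0.12, FDR = 0.0531). IFNAR2, its partner chain, had a log2 fold change of 0.09 (SE 0.145, FDR = 0.716). IL10RB, chosen after its values were seen, had an FDR of 0.0438 and a log2 fold change of 0.45, under the limit. None of the 3 receptor kinases tested was a DEG. JAK1 had 195, 196 and 195 CPM with Apatinib and 207, 205 and 210 CPM in the control (log2 fold change -0.09, SE 0.107, FDR = 0.625). TYK2 had a log2 fold change of 0.03 (SE 0.134, FDR = 0.912), and it was -0.16 with the GC correction.

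Of 16 genes tested that sense nucleic acids upstream of interferon, 3 were DEGs (18.8%, against 11.5% of all genes). TMEM173, which encodes STING, the adaptor that relays cytosolic DNA signals, had 30.9, 38.5 and 25.8 CPM with Apatinib and 12.8, 12.3 and 16.03 CPM in the control. It rose with a log2 fold change of 1.21 (SE 0.176, FDR = 0.00447). This was a DEG in every fit that left out a replicate. MB21D1, which encodes cGAS, the sensor that activates STING, had a log2 fold change of -0.23 (SE 0.158, FDR = 0.346), and IRF3, the factor downstream of STING, of 0.22 (SE 0.127, FDR = 0.278). TBK1, the kinase between STING and IRF3, had 19.4, 19.4 and 26.6 CPM with Apatinib and 36.2, 40.9 and 25.5 CPM in the control. It passed both limits as a lower DEG (log2 fold change -0.65, FDR = 0.0474), although control 3 lay inside the Apatinib range. TBK1 was no longer a DEG without Apatinib 1, Apatinib 2, control 1 or control 2, with FDR values of 0.105 to 0.215, nor with the GC correction (FDR = 0.105). DHX58, which encodes LGP2, a regulator of RIG-I and MDA5, had 17.2, 18.6 and 13.1 CPM with Apatinib and 7.68, 8.19 and 9.99 CPM in the control. DHX58 rose with a log2 fold change of 0.91 (SE 0.182, FDR = 0.0124), with FDR values of 0.0736 without control 1 and 0.0697 without control 2.

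**Figure D5:**
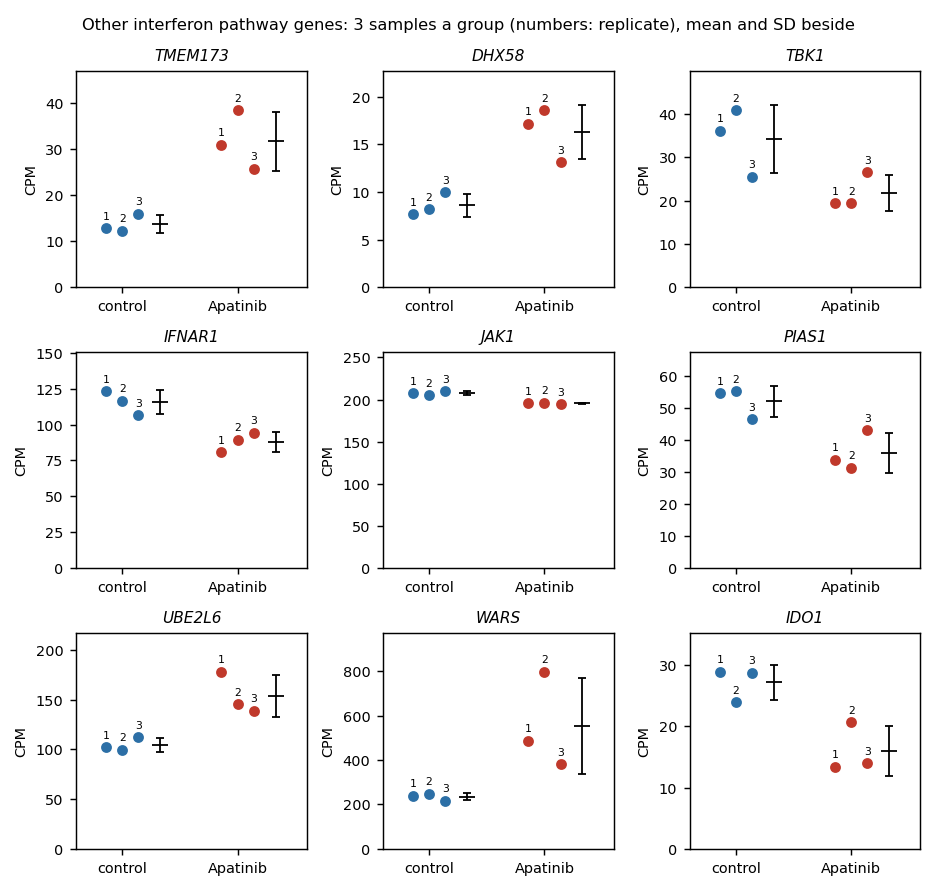
CPM of genes of the interferon pathway outside the list in the 3 control and the 3 Apatinib samples (numbers give the replicate), with the mean and SD beside the points. TMEM173, DHX58, UBE2L6 and WARS are higher in every Apatinib sample, and TBK1 overlaps between the groups.

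Of the 9 tested inhibitors of interferon signalling, PIAS1, which inhibits activated STAT proteins, was the only DEG (11.1%, against 11.5% of all genes). It had 33.7, 31.2 and 42.9 CPM with Apatinib and 54.4, 55.2 and 46.4 CPM in the control (log2 fold change -0.53, FDR = 0.0392). The call of PIAS1 was lost without Apatinib 1, Apatinib 2, control 1 or control 2, with FDR values of 0.0826 to 0.170, and with the GC correction (FDR = 0.0920).

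A further list of 52 interferon-induced genes had 46 rows tested and 3 DEGs, WARS, UBE2L6 and IDO1, where 11.5% of all genes were DEGs. WARS, the cytoplasmic tryptophanyl-tRNA synthetase, had 487, 798 and 381 CPM with Apatinib and 239, 249 and 217 CPM in the control. It rose with a log2 fold change of 1.24 (SE 0.222, FDR = 0.00886), and it was a DEG in every fit without a replicate. UBE2L6, the conjugating enzyme for ISG15, had 178, 145 and 139 CPM with Apatinib and 102, 99.4 and 112 CPM in the control (log2 fold change 0.56, FDR = 0.0218). Without Apatinib 1, control 1 or control 2 its FDR was 0.0632 to 0.120, and with the GC correction its log2 fold change of 0.40 was under the limit. IDO1, an enzyme that breaks down tryptophan and a classical target of type II interferon, had 13.4, 20.7 and 13.97 CPM with Apatinib and 28.9, 24.0 and 28.8 CPM in the control. IDO1 fell by 0.76 on the log2 scale (FDR = 0.0233), in the direction opposite to that of WARS. IDO1 was a DEG only without Apatinib 2 and without control 3 among the fits that left out a replicate, and otherwise had FDR values of 0.0594 to 0.0995. The log2 fold change was above 0 in 36 of the 46 rows tested and below 0 in 10, with a median of 0.20, against 50.3% of all genes above 0 and a median of 0.0028.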

How the data were processed

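RNA of 3 Apatinib and 3 control samples of SW872 cells was sequenced, and the study describes 3 biological replicates per condition. The authors deposited a matrix of counts, whole numbers that were not normalized, and FPKM values per sample. The submitters' processing notes name CASAVA, STAR 2.7.1a and hg19. The counting program is not given in the sources used here. In 1 FPKM table, 1 extra column with a control label was not used.

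The edgeR package (4.0.16, R 4.3.3) was applied to the counts with filterByExpr, TMM scaling and the quasi-likelihood test, and the FDR followed Benjamini and Hochberg over all 16290 genes tested. DEGs had an FDR under 0.05 and an absolute log2 fold change above 0.5, the limits of the study. CPM used the TMM factors. Fold changes are Apatinib over control. The limit given for 0 counts covers counting error only.

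The results were recomputed with DESeq2 1.42.0, with RLE size factors, with no filter, with a minimum of 10 counts per sample, with a replicate block, with controls 1 and 2 summed, without each replicate and without the fold change limit. FPKM values were tested with limma 3.58.1 on the log2 scale, adding 1 or 0.1, for genes with a mean above 0.5 FPKM and, adding 1, for all genes. A correction of GC content by loess was added after the data were seen. Replicates of the same number did not deviate together across genes (correlations -0.259, 0.0808 and -0.220), so the main fit did not pair them. These correlations cannot exclude a pairing.

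The genes, lists and naming rule were chosen with earlier results of these data known. Named were DEGs, genes with an unadjusted p under 0.05, the 8 most abundant genes by FPKM, the 2 largest changes in each direction, and preset genes of the pathway. Other members are given by family, some with values, and those were chosen after their values were seen. Promoter windows and motifs came from RefSeq on GRCh38.p14. No coordinates of the hg19 files were used. A gene of the preset pathway list is not reported here.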

Additional observations from a re-analysis of the deposited data

How the results depend on the processing

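The number of DEGs among all genes was 292 with controls 1 and 2 summed, 796 and 810 with limma on log2(FPKM + 1) and log2(FPKM + 0.1), and 9 with limma without a filter, against 1866. Leaving out a replicate gave 275 (without control 1) to 2594 (without control 3). Among the interferon-stimulated genes there were 5 DEGs with DESeq2, 6 without the filter on low counts, 1 with controls 1 and 2 summed and 0 with limma without a filter, against 3. All genes gave 2054 DEGs with DESeq2 and 2559 without the filter, of 32596 genes each. Leaving out a replicate gave 1 to 7 DEGs in the list (2.38% to 16.7%), where 1.65% to 15.5% of all genes were DEGs. Among the other pathway genes there were 2 DEGs with controls 1 and 2 summed and 0 with limma without a filter, against 7, and 2 to 11 without a replicate. The limma fit without a filter tested 33823 rows, and the reason for its low number of DEGs was not tested. The list had a median log2 fold change of 0.0651 to 0.238 without a replicate and 0.133 with the GC correction. With the replicate number as a block, the list held 2 DEGs, OASL and SAMD9, with IFI35 at an FDR of 0.0602, and all genes 2215 DEGs, 1047 higher and 1168 lower. Since no pairing of the samples by number was seen, this fit says nothing about a weaker effect. DESeq2 gave 1003 higher and 1051 lower DEGs among all genes.

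Over all alternatives, 30 of the 42 interferon-stimulated genes tested kept the sign of the log2 fold change and 12 did not. The latter were DDX60, HERC5, IFI27, IFI44, IFI44L, IFIH1, IFIT1, IFIT2, IFITM1, IRF7, ISG20 and XAF1. None of them was a DEG in the main edgeR fit, and DDX60 was a DEG without control 3. XAF1 ranged from -0.33 without Apatinib 2 to 0.52 without Apatinib 1. Among the genes of the naming rule, signs reversed in IFITM1, IFNAR2 and TYK2. Without a replicate, IFITM1 ranged from -0.0051 (without Apatinib 1) to 0.31 and IFNAR2 from -0.0075 (without Apatinib 3) to 0.19. TYK2 was -0.0228 with controls 1 and 2 summed, -0.0509 without Apatinib 1, -0.0557 without control 1 and -0.16 with the GC correction, and at most 0.13 without a replicate. Of 510 alternative values of the 32 genes of the naming rule, 436 kept direction and call, 56 lost the call, 12 gained it and 6 reversed. OASL was a DEG in 15 of the 16 fits and missed the FDR limit in limma without a filter. The cause of these moves was not tested. Genes of few counts, such as CMPK2 and IRF9, had standard errors of 0.30 and 0.37 on the log2 scale, so that only large changes could pass.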
